A study of Mus musculus with 9 samples.

Results

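Translation initiation factors were followed across the hearts of wild-type mice and of mice labelled as germline Parkin knockouts. They were taken as every row of the deposited read-count table whose symbol starts with Eif and a digit from 1 to 6, which gave 56 genes of 23457 rows, and 3 further rows with such symbols were not analysed here. The 5 wild-type (WT) and 4 knockout (KO) hearts came from adult C57BL/6J mice, and each library held poly(A) RNA of 1 heart, read from 1 end without strand. The protocol names flash-frozen ventricular apex as the material, whereas the tissue label reads whole heart. Parkin is a ubiquitin ligase that marks damaged mitochondria for removal, and the labels describe its loss as germline, so every cell type of the heart would carry it. Its own transcript is not reported here, so the hearts are called labelled knockouts and every direction rests on the labels. Mouse hearts were a side arm of a Drosophila project, and their comparison asks which cardiac transcripts differ with genotype.

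Initiation brings a ribosome, the initiator tRNA and an mRNA together at a start codon. The cap-binding complex eIF4F (the cap-binding protein eIF4E, the scaffold eIF4G and the RNA helicase eIF4A) recruits the mRNA, and eIF3, eIF2, eIF1, eIF1A and eIF5 assemble on the small subunit and scan for the start codon. Control falls mainly on 2 steps, the sequestration of eIF4E by 4E-binding proteins that mTOR inactivates, and the phosphorylation of eIF2 alpha by stress-sensing kinases, which blocks its exchange factor eIF2B. In heart muscle these steps set the rate of protein synthesis during growth and stress.

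The rows fell into eIF1 and eIF1A (5 genes), eIF2 and other initiator tRNA carriers (4), eIF2 kinases (3), eIF2B (5), eIF3 (14), eIF4 (12), 4E-binding proteins (4), eIF5 (4) and eIF6 (1). A further 4 rows, Eif2c1 to Eif2c4, are older symbols of the Argonaute genes Ago1 to Ago4, which bind small RNAs and are not initiation factors. Of the 56 genes, 52 had enough reads to be tested. Eif4e1b and Eif5a2 had at most 5 and 24 reads in any heart. Eif3j1 and Eif3j2 were listed at 0 reads in every heart, while the FPKM table gave Eif3j2 6.41 to 14.9 FPKM. They are near-identical copies, with 90.8% of the 50-base windows of Eif3j2 also present in Eif3j1, so a count of 0 is not read as absence of expression.

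Total assigned reads per heart ran from 4415183 to 20827699, and WT hearts 2 and 3 were the shallowest. Mitochondrially encoded transcripts took 32.6% to 58.2% of reads in wild type and 10% to 15.4% in the labelled knockouts, and across all genes fold changes tracked transcript GC content (Spearman rho 0.614 over 12542 genes, which are not independent replicates). Each fold change is therefore given from edgeR and again with GC content and length trends removed, which is called the corrected fit. Biological differences that track those properties are removed along with the trends. Of the cell type markers, the 8 ventricular cardiomyocyte genes summed to 56900 to 62500 CPM in wild type and 72700 to 81500 CPM in the labelled knockouts. Most of that difference was Myh6 (means of 28600 and 41900 CPM), which was higher by edgeR only (0.55; corrected 0.12), as was Tnni3 (0.63; corrected 0.011). Myl3 was higher (1.24; corrected 0.67) and Pln lower (-1.43; corrected -0.63) in both fits. Tnnt2 was lower in the corrected fit only (-0.31), and Actc1, Myl2 and Ryr2 were called in neither. The defining atrial genes Myl7 and Sln had means below 1 CPM in both groups, while Nppa stood at 34.9 and 270 CPM. Fibroblast genes summed to 415 to 543 and 401 to 582 CPM, with Col1a1 (0.81) and Col1a2 (0.60) higher by edgeR only and Dcn (-1.21; corrected -0.68) and Lum (-2.12; corrected -1.50) lower in both fits. Endothelial genes summed to 607 to 737 and 478 to 563 CPM. Mural genes summed to 508 to 718 and 633 to 883 CPM, with Cspg4 higher in both fits (1.31; corrected 0.69). Of the other mural genes, Pdgfrb (0.32) was higher and Rgs5 (-0.66) lower by edgeR only. Immune genes summed to 69.6 to 88.3 and 83.1 to 113 CPM. Of these, C1qa (0.89) and Csf1r (0.42) were higher by edgeR only, and Cd68 was lower in both fits (-1.04; corrected -1.35). Skeletal muscle genes, mostly Ckm, which the heart also expresses, summed to 679 to 1170 and 1460 to 2020 CPM, with the defining gene Myh2 at 1.23 and 14.3 CPM, and erythroid genes to 11.3 to 21.6 and 8.59 to 20.4 CPM. That last sum leaves out haemoglobin, since Hba-a1 was listed at 0 reads in every heart while the FPKM table gave it means of 1630 and 3020 FPKM. The part of mitochondrial share, GC content or cell makeup in the results was not tested beyond the corrected fit and a fit without mitochondrially encoded genes and the ribosomal RNA gene Rn45s.

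Initiation factor transcripts moved in both directions. At an adjusted p below 0.05, 13 of the 52 tested genes were higher and 19 lower in the labelled knockouts, where 51.4% of all 12640 tested genes were called, 26.2% higher and 25.2% lower. The median log2 fold change was -0.19, and single genes ranged from -1.74 to 1.15. In the corrected fit 9 were higher and 14 lower, beside 38.1% of all genes (18.6% higher, 19.5% lower), with a median of -0.08. A call in the same direction in both fits was reached by 16 genes, 5 higher and 11 lower, where 26.7% of all genes were so called (13% higher, 13.6% lower). None changed direction among the calls of both fits, 16 calls were lost in the corrected fit and 7 were gained. On median-centred FPKM, 13 genes were higher and 21 lower, beside 53.9% of all genes (25.4% higher, 28.4% lower), and DESeq2 called 13 higher and 20 lower, beside 52.5% of all genes (26.4% higher, 26% lower). By edgeR the number of higher genes was close to what the share of all genes would give. The number of lower genes stood above it, a difference that was not tested. Without the kinases, 4E-binding proteins and Argonaute rows, 12 of 41 tested genes were higher and 14 lower by edgeR. Of these 41, 8 were higher and 9 lower in the corrected fit, and 4 and 6 in both fits. The CPM of the groups did not overlap for 12 higher and 13 lower genes, beside 41.6% of all genes (22.3% higher, 19.3% lower).

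By complex, eIF1 and eIF1A had no call among 5 genes by edgeR, although 1 was higher and 2 lower in the corrected fit, and Eif1 was called lower by DESeq2. Among 4 eIF2 genes 1 was higher and 2 lower (corrected, 2 and 1), and 2 of 3 eIF2 kinases were lower (corrected, also 2). Of 5 eIF2B genes 3 were higher and 1 lower, and none was called in the corrected fit. Among 12 tested eIF3 subunits 4 were higher and 4 lower (corrected, 2 and 3), and among 11 eIF4 genes 3 were higher and 5 lower (corrected, 3 and 2). The 4E-binding proteins held 1 higher and 2 lower of 4 in both fits, eIF5 held 2 lower of 3 (corrected, 1), and Eif6 was higher but not in the corrected fit. Whether complexes differ from each other was not tested.

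**Figure D1:**
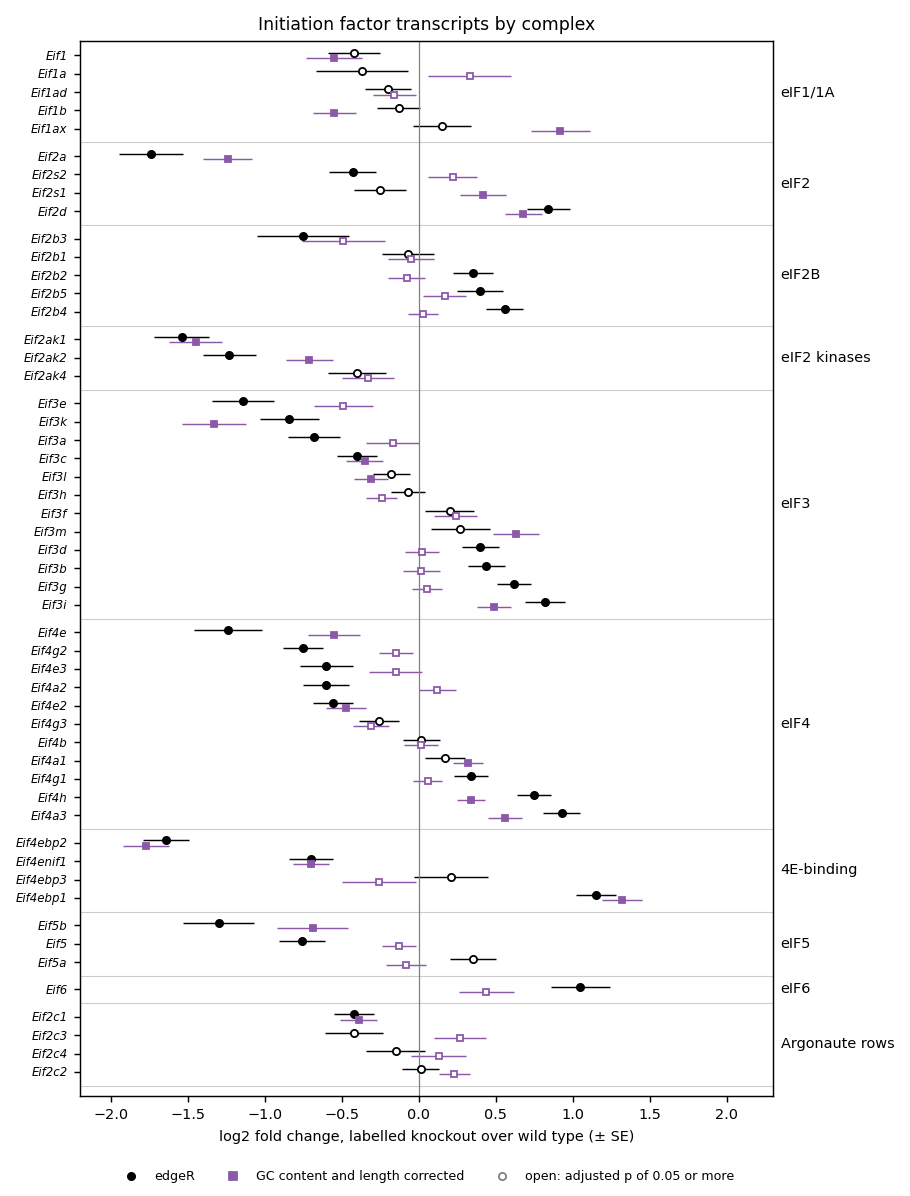
Log2 fold change (x axis, labelled knockout over wild type, bars ± SE) of the 52 tested genes by complex (rows), from edgeR (circles) and the corrected fit (squares), with open symbols for an adjusted p of 0.05 or more. The widest opposite moves within a group are those of Eif4ebp1 (1.15) and Eif4ebp2 (-1.64), and the squares of eIF2B all lie within 0.49 of 0.

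The 4E-binding proteins, which hold eIF4E away from eIF4G until mTOR phosphorylates them, held the largest rise and, after Eif2a, the largest fall of the initiation factor genes by edgeR. Eif4ebp1 and Eif4ebp2 encode 4E-BP1 and 4E-BP2, which share the eIF4E-binding motif. The coding stretches around that motif are shown because the genes moved in opposite directions while the site they encode is the same in kind. They come from the longest coding transcript of each gene in GENCODE vM21 (GRCm38), Eif4ebp1 at chr8:27260329-27276674 (plus strand) and Eif4ebp2 at chr10:61428491-61452661 (minus strand), and capitals mark the 7 codons of the motif.
Eif4ebp1: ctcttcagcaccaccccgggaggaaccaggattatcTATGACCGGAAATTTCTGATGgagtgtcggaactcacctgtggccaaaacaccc
Eif4ebp2: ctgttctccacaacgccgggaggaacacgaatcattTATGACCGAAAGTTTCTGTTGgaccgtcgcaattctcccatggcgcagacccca
The stretches are identical at 65 of 90 bases, and of the 22 codons that differ among 30, 17 encode the same residue.

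Eif4ebp1 stood at 23.0, 17.3, 18.7, 24.9 and 24.03 CPM in WT hearts 1 to 5 and at 43.9, 51.0, 47.4 and 53.6 CPM in KO hearts 1 to 4. Every labelled knockout heart lay above every wild-type heart, and Eif4ebp1 rose 2.22-fold (log2 fold change 1.15 ± 0.13, adjusted p = 1.63e-05; corrected 1.32 ± 0.13, adjusted p = 1.76e-05). Eif4ebp2 had 90.9, 139, 140.1, 119 and 129.6 CPM in the wild-type hearts and 44.6, 40.5, 40.3 and 32.35 CPM in the labelled knockouts. The groups were again apart, and Eif4ebp2 fell 3.12-fold (log2 fold change -1.64 ± 0.15, adjusted p = 4.11e-06; corrected -1.77 ± 0.15, adjusted p = 7.04e-06). Per length, the order of the pair turned over. In wild type Eif4ebp2 had 62.5 ± 6.58 FPKM and Eif4ebp1 23.3 ± 7.86 FPKM (SD, n = 5), and in the labelled knockouts they had 30.4 ± 5.43 and 76.2 ± 3.13 FPKM (SD, n = 4), with no overlap between the genes within either group.

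The other genes of this group did not share that split. Eif4enif1, whose product carries eIF4E into the nucleus and into mRNA granules, ran from 46.2 to 55.8 CPM in wild type and from 25.3 to 39.7 CPM in the labelled knockouts, a fall in both fits (log2 fold change -0.70 ± 0.14, adjusted p = 0.000727; corrected -0.70 ± 0.12, adjusted p = 0.000665). Eif4ebp3, a further 4E-binding protein, stood at 1.78 to 3.48 and 2.36 to 3.64 CPM and was not called (log2 fold change 0.21 ± 0.24, adjusted p = 0.485). Another annotated gene on the same strand covers 67.3% of its exonic bases, so its reads cannot be assigned with certainty.

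**Figure D2:**
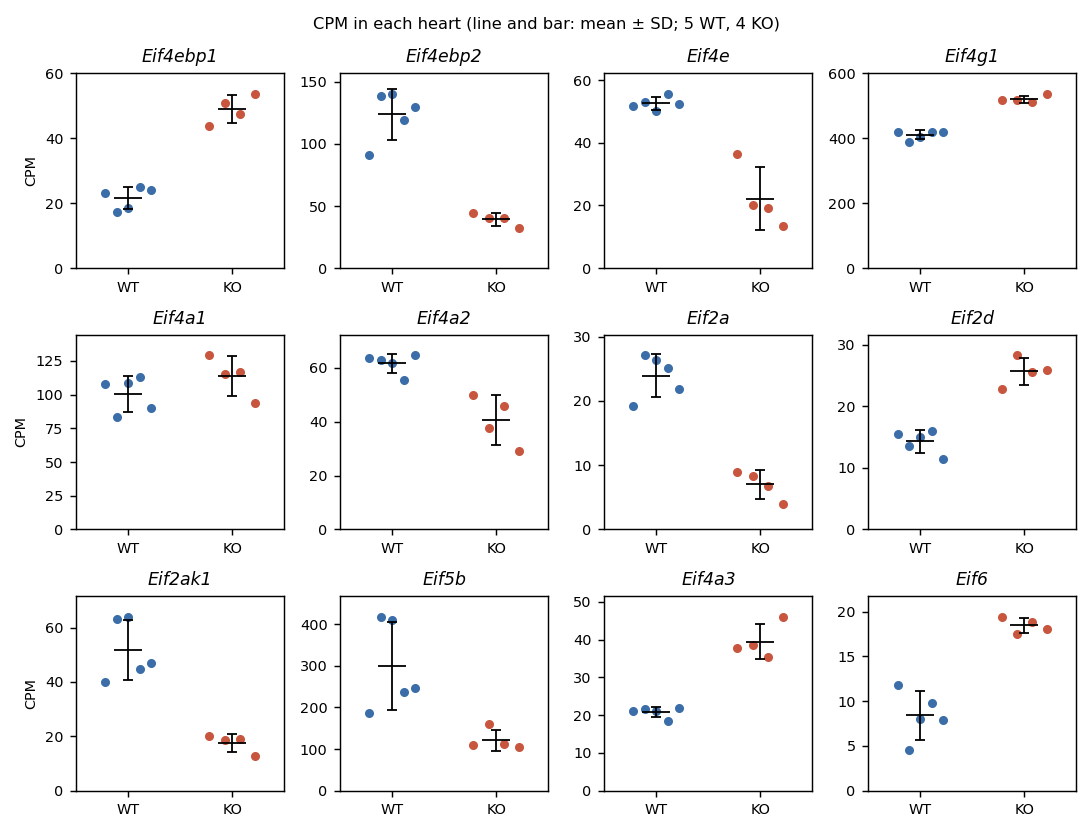
CPM (y axis, from 0) in each of the 5 wild-type (blue) and 4 labelled knockout hearts (red) for 12 genes, with the mean and SD as a line and bar. The groups are apart in 11 panels, and those of Eif4a1 (83.3 to 113 and 93.6 to 129 CPM) overlap.

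The target of these proteins moved too. Eif4e, at chr3:138526179-138559696 (plus strand), encodes the cap-binding protein whose supply limits cap-dependent initiation. It stood at 51.9, 53.1, 50.05, 55.55 and 52.5 CPM in WT hearts 1 to 5, close together, and at 36.4, 20.05, 19.1 and 13.3 CPM in KO hearts 1 to 4. All labelled knockouts lay below all wild types, with KO heart 1 nearest to them, and Eif4e fell 2.36-fold (log2 fold change -1.24 ± 0.22, adjusted p = 0.000297; corrected -0.55 ± 0.17, adjusted p = 0.0189). On corrected CPM the groups overlapped, with KO heart 1 at 40.5 inside the wild-type range of 37.8 to 44.5. The related cap-binding gene Eif4e2, whose product does not join eIF4G, ran from 41.6 to 65.9 CPM in wild type and from 35.4 to 37.5 CPM in the labelled knockouts and also fell (log2 fold change -0.56 ± 0.13, adjusted p = 0.00297; corrected -0.47 ± 0.13, adjusted p = 0.0112). Eif4e3 also fell by edgeR (log2 fold change -0.60 ± 0.17, adjusted p = 0.00953) but not in the corrected fit (-0.15 ± 0.17, adjusted p = 0.504) nor without WT hearts 2 and 3 (-0.37, adjusted p = 0.0575). Exonic bases of Eif4e3 overlap a predicted gene on the same strand to 14.8%.

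Of the scaffolds, Eif4g1 rose slightly and Eif4g2 fell, but neither was called in the corrected fit. Eif4g1, the main scaffold of eIF4F, at chr16:20668313-20692884 (plus strand), had 419, 389, 404, 421 and 420.1 CPM in wild type and 517, 518, 511 and 536 CPM in the labelled knockouts. The lowest labelled knockout heart exceeded the highest wild-type heart, though the rise was only 1.27-fold (log2 fold change 0.34 ± 0.11, adjusted p = 0.014; corrected 0.06 ± 0.09, adjusted p = 0.655). Eif4g2, which encodes DAP5, a scaffold that lacks the eIF4E-binding part, ran from 728 to 854 CPM in wild type and from 394 to 587 CPM in the labelled knockouts (log2 fold change -0.75 ± 0.13, adjusted p = 0.000355; corrected -0.15 ± 0.11, adjusted p = 0.293). Eif4g3, a further scaffold gene, was not called in either fit (log2 fold change -0.26 ± 0.13, adjusted p = 0.106; corrected -0.31 ± 0.12, adjusted p = 0.0611), though it passed without KO heart 4 (-0.35, adjusted p = 0.0378).

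Eif4a1 and Eif4a2 encode near-identical helicases that unwind the mRNA 5′ end. The stretches around the DEAD box, which gives this helicase family its name, are shown to compare the pair. They are from GENCODE vM21 (GRCm38), Eif4a1 at chr11:69666936-69672423 (minus strand) and Eif4a2 at chr16:23107444-23114136 (plus strand), with the 4 codons of the box in capitals.
Eif4a1: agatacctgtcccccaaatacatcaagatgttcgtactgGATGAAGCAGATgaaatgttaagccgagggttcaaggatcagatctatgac
Eif4a2: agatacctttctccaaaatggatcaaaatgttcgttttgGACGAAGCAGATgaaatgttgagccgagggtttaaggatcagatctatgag
They are identical at 78 of 90 bases, and 9 of the 11 codons that differ encode the same residue.

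Eif4a1 stood at 108, 83.25, 109, 113 and 89.95 CPM in wild type and 129, 115, 116.5 and 93.6 CPM in the labelled knockouts. The groups overlapped and edgeR did not call it (log2 fold change 0.17 ± 0.13, adjusted p = 0.288), while the corrected fit did (0.32 ± 0.10, adjusted p = 0.0246). A pseudogene, Eif4a-ps4, holds 24.2% of its 50-base windows, so its counts carry that uncertainty. Eif4a2 had 63.5, 62.8, 61.6, 55.55 and 64.5 CPM in WT hearts and 49.8, 37.6, 45.8 and 29.1 CPM in KO hearts, without overlap. It was lower by edgeR (log2 fold change -0.60 ± 0.15, adjusted p = 0.00351) and by limma on median-centred FPKM (-0.46, adjusted p = 0.0297), but its sign turned in the corrected fit, where it was not called (0.12 ± 0.12, adjusted p = 0.46).

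Eif4a3 is named with the other helicases but works mainly in the exon junction complex, which marks spliced mRNA. It had 21.1, 21.5, 21.03, 18.5 and 21.9 CPM in wild type and 37.7, 38.7, 35.5 and 46.03 CPM in the labelled knockouts. The groups lay far apart, and Eif4a3 rose 1.90-fold (log2 fold change 0.93 ± 0.12, adjusted p = 4.43e-05; corrected 0.56 ± 0.11, adjusted p = 0.00175). Of the helicase cofactors, Eif4h rose from 64.5 to 74.8 CPM over wild-type hearts to 113 to 123 CPM (log2 fold change 0.75 ± 0.11, adjusted p = 6.73e-05; corrected 0.34 ± 0.09, adjusted p = 0.0098). Eif4b stood at 161 to 174 and 140 to 194 CPM and was called in neither fit (log2 fold change 0.02 ± 0.12, adjusted p = 0.923; corrected 0.01 ± 0.11, adjusted p = 0.938).

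The balance between paralogs can be measured within each heart, where it does not depend on library size. The log2 ratio of CPM + 0.5 was computed for 6 of 7 listed pairs, since Eif5a2 was too low for the seventh. The ratio of Eif4ebp2 to Eif4ebp1 was 1.96, 2.96, 2.88, 2.23 and 2.41 in WT hearts 1 to 5 and 0.02, -0.33, -0.23 and -0.72 in KO hearts 1 to 4. It was positive in every wild-type heart, and 3 of 4 labelled knockouts had a negative value. The difference was -2.80 (two-sided exact permutation p = 0.0159, the smallest that all splits of the 9 hearts allow; adjusted over 6 pairs, 0.0238). It was -3.09 on corrected counts (exact permutation p = 0.0159, again the smallest possible, adjusted p = 0.0952).

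Of the other pairs, Eif4g2 to Eif4g1 shifted by -1.11, Eif4a2 to Eif4a1 by -0.80 and Eif4g3 to Eif4g1 by -0.61, each without overlap of the groups (exact permutation p = 0.0159 and adjusted p = 0.0238 for each). On corrected counts they stood at -0.21, -0.22 and -0.37 (exact permutation, adjusted p = 0.0952, 0.19 and 0.0952). The ratio of Eif4e2 to Eif4e differed by 0.77 (exact permutation p = 0.0635, adjusted p = 0.0762), and by 1.04 without KO heart 1 (exact permutation, adjusted p = 0.0429), the heart with the highest Eif4e. Eif1b to Eif1 differed by 0.30 (exact permutation p = 0.27). With KO heart 2, 3 or 4 left out, the 4 pairs that passed had an adjusted exact permutation p of 0.0536. Each stood at the smallest exact p that the remaining splits allow. Without WT hearts 2 and 3 the adjusted value was 0.0857, since 3 against 4 hearts cannot give a p below 0.0571. These values reflect the number of splits and do not measure the size of the shift.

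**Figure D3:**
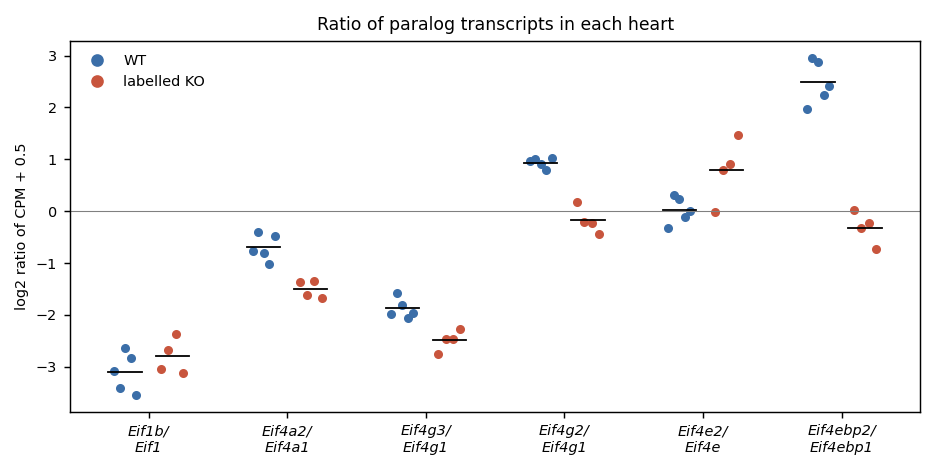
Log2 ratio of CPM + 0.5 (y axis) of 6 paralog pairs (x axis) in each wild-type (blue) and labelled knockout heart (red), with group means as lines. The pair Eif4ebp2/Eif4ebp1 moves from a mean of 2.49 to -0.31, while Eif4e2/Eif4e and Eif1b/Eif1 overlap between groups.

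None of the eIF1 and eIF1A genes was called by edgeR. Eif1, whose product guards the choice of start codon, stood at 184, 235, 186, 144 and 232 CPM across the wild types and 178, 131, 109 and 167 CPM across the labelled knockouts. The groups overlapped and the test just missed its threshold (log2 fold change -0.42 ± 0.17, adjusted p = 0.0505). Its call depended on the setting: it was called lower in the corrected fit (-0.55 ± 0.18, adjusted p = 0.0269), by DESeq2 (adjusted p = 0.0431) and without WT heart 4 (-0.54, adjusted p = 0.0146), KO heart 1 (-0.53, adjusted p = 0.0233) or KO heart 4 (-0.49, adjusted p = 0.0411).

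The paralog Eif1b was not called by edgeR (log2 fold change -0.13 ± 0.14, adjusted p = 0.465) and was lower in the corrected fit (-0.55 ± 0.14, adjusted p = 0.00695). Eif1ax and Eif1a encode eIF1A, which helps the initiator tRNA to settle on the small subunit. Eif1ax had 6.95, 6.94, 8.29, 7.02 and 8.12 CPM in wild type and 7.65, 6.80, 7.03 and 11.5 CPM in the labelled knockouts, with KO heart 4 alone above the wild-type range (log2 fold change 0.15 ± 0.19, adjusted p = 0.528; corrected, called higher, 0.92 ± 0.19, adjusted p = 0.00219). Eif1a and Eif1ad were called in neither fit, with Eif1a at 2.08 to 7.70 and 2.53 to 5.51 CPM.

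The initiator tRNA is carried by the eIF2 trimer and, on some mRNAs, by other proteins. Eif2s1, the alpha subunit that the stress kinases phosphorylate, had 21.3, 17.7, 19.55, 18.8 and 19.4 CPM in wild type and 18.3, 17.3, 19.1 and 10.4 CPM in the labelled knockouts. Only KO heart 4 stood well below the rest, and Eif2s1 was not called (log2 fold change -0.25 ± 0.17, adjusted p = 0.218) but was higher in the corrected fit (0.42 ± 0.15, adjusted p = 0.0413). Eif2s2, the beta subunit, ran from 41.8 to 71.8 CPM in wild type and from 35.8 to 44.6 CPM in the labelled knockouts. Its call as lower (log2 fold change -0.43 ± 0.15, adjusted p = 0.0241) was lost without WT heart 2 (-0.33, adjusted p = 0.0509) or KO heart 3 (-0.38, adjusted p = 0.0793), and without WT hearts 2 and 3 together (-0.29, adjusted p = 0.102). It was lower by limma on median-centred FPKM (-0.33, adjusted p = 0.0486), and its sign turned in the corrected fit (0.22).

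Eif2a, an alternative carrier outside the trimer, at chr3:58525821-58557501 (plus strand), held the largest fall by edgeR. It had 19.1, 27.1, 26.4, 25.1 and 21.8 CPM in WT hearts 1 to 5 and 8.98, 8.25, 6.77 and 4.01 CPM in KO hearts 1 to 4. The highest labelled knockout lay well below the lowest wild-type heart, a 3.34-fold fall (log2 fold change -1.74 ± 0.21, adjusted p = 1.85e-05; corrected -1.24 ± 0.16, adjusted p = 8.6e-05). Eif2d, at chr1:131153181-131187658 (plus strand), encodes a carrier that can place tRNA at the start codon and release it from recycled ribosomes. It moved the other way, with 15.5, 13.5, 15.1, 16.01 and 11.5 CPM in wild type and 22.9, 28.3, 25.7 and 25.98 CPM in the labelled knockouts. All labelled knockout hearts exceeded all wild types, and Eif2d rose 1.78-fold (log2 fold change 0.84 ± 0.14, adjusted p = 0.000198; corrected 0.68 ± 0.12, adjusted p = 0.000726). Denr and Mcts1, looked at after their values were seen, encode a dimer that is built of the same kinds of domain as Eif2d. They fell in both fits, Denr from 33.8 to 12.2 CPM (-1.46, adjusted p = 0.000254; corrected -0.93, adjusted p = 0.00253) and Mcts1 from 4.13 to 1.69 CPM (-1.35, adjusted p = 0.0051; corrected -0.91, adjusted p = 0.0325).

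Of the eIF2 kinases, 2 of 3 fell in both fits. Eif2ak1, the haem-sensing kinase HRI, which also relays mitochondrial stress, lies at chr5:143817788-143904251 (plus strand) and had 40.03, 63.1, 63.97, 44.9 and 47.01 CPM in wild type and 20.2, 18.5, 18.9 and 12.6 CPM in the labelled knockouts. The groups were wide apart, with a 2.90-fold fall (log2 fold change -1.54 ± 0.18, adjusted p = 1.62e-05; corrected -1.45 ± 0.17, adjusted p = 3.77e-05), and genes on the other strand overlap 11.6% of its exonic bases. Eif2ak2, the double-stranded RNA sensor PKR, ran from 16.1 to 24.97 CPM and from 8.30 to 9.12 CPM (log2 fold change -1.23 ± 0.17, adjusted p = 4.58e-05; corrected -0.71 ± 0.15, adjusted p = 0.00251). Eif2ak4, the amino acid sensor GCN2, had 10.8, 10.4, 7.11, 8.22 and 12.8 CPM in wild type and 7.74, 6.99, 9.10 and 6.37 CPM in the labelled knockouts. These overlapped, and Eif2ak4 was called in neither fit (log2 fold change -0.40 ± 0.19, adjusted p = 0.0868; corrected -0.33 ± 0.17, adjusted p = 0.155), though it passed without WT heart 3 (-0.48, adjusted p = 0.044).

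The eIF2B genes encode the exchange factor that reloads eIF2 with GTP. Eif2b4, the delta subunit, had 33.1, 33.3, 27.5, 31.1 and 25.8 CPM in wild type and 41.4, 45.2, 43.6 and 47.3 CPM in the labelled knockouts, without overlap (log2 fold change 0.56 ± 0.12, adjusted p = 0.00149; corrected 0.03 ± 0.10, adjusted p = 0.86). Eif2b3, the gamma subunit, had 7.53, 10.75, 8.0, 8.22 and 7.54 CPM and 7.74, 4.88, 4.95 and 1.72 CPM, with KO heart 1 inside the wild-type range and KO heart 4 lowest. It was the only eIF2B gene called lower (log2 fold change -0.75 ± 0.30, adjusted p = 0.0453), and the call was lost on leaving out any heart except KO heart 1 (-0.80 to -0.47, adjusted p up to 0.0853) and in the corrected fit (-0.49 ± 0.27, adjusted p = 0.165).

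Eif2b5, the catalytic epsilon subunit, had 33.6, 28.1, 21.03, 31.7 and 24.3 CPM in wild type and 41.85, 38.7, 37.2 and 30.1 CPM in the labelled knockouts, where KO heart 4 overlapped the wild types. Its rise (log2 fold change 0.40 ± 0.15, adjusted p = 0.039) was not called without WT heart 2 (0.39), WT heart 3 (0.31), WT heart 5 (0.33), KO heart 1 (0.33), KO heart 2 (0.38) or KO heart 3 (0.40). Eif2b2, the beta subunit, did not overlap between groups (14.8 to 19.5 and 19.9 to 24.7 CPM; log2 fold change 0.35 ± 0.13, adjusted p = 0.0399). It lost its call without WT heart 3 (0.32), WT heart 4 (0.28), WT heart 5 (0.32), KO heart 3 (0.37) or KO heart 4 (0.29), and its sign turned in the corrected fit (-0.08). Eif2b1, the alpha subunit that senses phosphorylated eIF2, was called in neither fit (log2 fold change -0.07 ± 0.17, adjusted p = 0.763).

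eIF3 is the largest initiation complex and holds the small subunit ready for mRNA. Its core subunits split: Eif3a had 228, 411, 435, 277 and 315 CPM in wild type and 199, 229.8, 206 and 193 CPM in the labelled knockouts, with KO heart 2 just inside the wild-type range. It was lower by edgeR (log2 fold change -0.68 ± 0.17, adjusted p = 0.00418), by less without WT hearts 2 and 3 (-0.41, adjusted p = 0.0319), and not in the corrected fit (-0.17 ± 0.17, adjusted p = 0.441). Eif3b (55.8 to 69.9 and 73.9 to 91.2 CPM) was higher by edgeR only (log2 fold change 0.44 ± 0.12, adjusted p = 0.006; corrected 0.02 ± 0.12, adjusted p = 0.926). Eif3c (134 to 190 and 102 to 128 CPM) was lower in both fits (log2 fold change -0.40 ± 0.13, adjusted p = 0.0169; corrected -0.35 ± 0.12, adjusted p = 0.0302), but not without WT hearts 2 and 3 (-0.30, adjusted p = 0.0755). On median-centred FPKM it was lower by limma (-0.31, adjusted p = 0.0471).

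The subunits Eif3i and Eif3g bind beside the core subunit b. Eif3i had 36.85, 27.75, 25.2, 31.8 and 27.6 CPM in wild type and 52.6, 53.8, 57.03 and 50.25 CPM in the labelled knockouts. It rose 1.77-fold without overlap (log2 fold change 0.82 ± 0.13, adjusted p = 0.000133; corrected 0.49 ± 0.11, adjusted p = 0.00283). Eif3g ran from 29.0 to 33.2 CPM and from 43.6 to 51.4 CPM and was higher by edgeR only (log2 fold change 0.62 ± 0.11, adjusted p = 0.000424; corrected 0.05 ± 0.10, adjusted p = 0.691). Eif3d, which can bind the cap of some mRNAs, was also higher by edgeR only (log2 fold change 0.40 ± 0.12, adjusted p = 0.0104; corrected 0.02 ± 0.11, adjusted p = 0.916) and lost that call without KO heart 3 (0.33, adjusted p = 0.0513). An antisense gene overlaps 43.3% of its exonic bases.

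In the octamer that forms the body of eIF3, Eif3e had 12.7, 9.71, 13.9, 12.5 and 13.35 CPM in wild type and 7.46, 4.46, 4.04 and 6.87 CPM in the labelled knockouts. The groups did not overlap, and its fall (log2 fold change -1.14 ± 0.20, adjusted p = 0.000338) just missed the threshold in the corrected fit (-0.49 ± 0.19, adjusted p = 0.0515). Eif3k had 88.7, 175.5, 171, 117 and 152 CPM and 75.5, 91.2, 81.45 and 63.5 CPM, with 3 of 4 labelled knockouts below the wild-type range. It fell in both fits, further in the corrected one (log2 fold change -0.84 ± 0.19, adjusted p = 0.00164; corrected -1.33 ± 0.21, adjusted p = 0.000254). Eif3l and Eif3m were called only in the corrected fit, Eif3l lower (-0.31 ± 0.11, adjusted p = 0.0356) and Eif3m higher (0.63 ± 0.15, adjusted p = 0.00541), and Eif3m also passed by edgeR without KO heart 4 (0.42, adjusted p = 0.042). Eif3f and Eif3h were called in neither fit, and 20.1% of the windows of Eif3h are shared with another gene.

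Of the 3 tested eIF5 genes, 2 were lower by edgeR. Eif5b, at chr1:37998010-38055579 (plus strand), encodes the GTPase that joins the ribosomal subunits. It had 187, 418, 409, 236 and 247 CPM in WT hearts, where hearts 2 and 3 stood highest, and 109, 159, 112 and 104 CPM in KO hearts. No labelled knockout reached the wild types, and Eif5b fell 2.46-fold (log2 fold change -1.30 ± 0.23, adjusted p = 0.00031; corrected -0.69 ± 0.23, adjusted p = 0.027), with an antisense gene over 16.8% of its exonic bases. On corrected CPM the groups overlapped, with KO heart 2 at 213 inside the wild-type range of 166.7 to 337.9. Eif5, which triggers GTP hydrolysis by eIF2 at the start codon, had 36.45, 43.01, 47.7, 42.3 and 49.3 CPM in wild type and 32.2, 25.4, 24.9 and 20.2 CPM in the labelled knockouts, apart by edgeR (log2 fold change -0.76 ± 0.15, adjusted p = 0.000661) but not called in the corrected fit (-0.13 ± 0.11, adjusted p = 0.367).

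Eif5a encodes a factor that now counts mainly as an elongation factor, which helps ribosomes through difficult stretches. It had 196, 120.4, 119.9, 171 and 131 CPM in wild type and 187, 205.5, 180.3 and 185 CPM in the labelled knockouts. WT heart 1 lay within the labelled knockout range, and Eif5a was not called (log2 fold change 0.35 ± 0.15, adjusted p = 0.0625; corrected -0.09 ± 0.13, adjusted p = 0.635), but passed without WT heart 1 (0.47, adjusted p = 0.01) or without mitochondrially encoded genes and the ribosomal RNA gene Rn45s together (0.37, adjusted p = 0.0492). Eif6, at chr2:155819832-155826925 (minus strand), keeps the large subunit from joining too early. It had 11.8, 4.51, 8.0, 9.83 and 7.89 CPM in WT hearts and 19.4, 17.5, 18.8 and 18.1 CPM in KO hearts. Its 2.07-fold rise without overlap (log2 fold change 1.05 ± 0.19, adjusted p = 0.000341) did not pass in the corrected fit (0.44 ± 0.18, adjusted p = 0.0632).

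Of the Argonaute rows, Eif2c1 was lower in both fits (log2 fold change -0.42 ± 0.13, adjusted p = 0.0141; corrected -0.39 ± 0.12, adjusted p = 0.0174) and by limma on median-centred FPKM (-0.34, adjusted p = 0.0156). The other 3 were called in neither.

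The direction of the calls followed GC content among the initiation factor genes as it did among all genes. Of 16 genes with a transcript GC content up to 45%, none was higher and 11 were lower, where 3.56% and 54.9% of all genes in that class were. Of 17 above 52%, 12 were higher and 2 lower, beside 49.6% and 7.58% of all genes. The 19 between had 1 higher and 6 lower, beside 13.7% and 27.0%. The median log2 fold change in the classes, from low to high GC content, was -0.64, -0.20 and 0.40, and -0.63, -0.16 and 0.46 over all genes. Spearman's rho between fold change and GC content was 0.616 over the 52 genes, which share their libraries, and 0.0298 in the corrected fit. In that fit the class up to 45% held 3 higher and 4 lower genes. The class between held 2 higher and 7 lower, and the class above 52% held 4 higher and 3 lower. Over all genes of any GC content, 18.6% were higher and 19.5% lower in the corrected fit. Eif4ebp1 (48.2% GC), Eif4ebp2 (52.4%), Eif2ak1 (49.2%), Eif4enif1 (50.2%) and Eif3k (53.9%), picked after their values were seen, changed by similar or larger amounts when the trends were removed (1.32, -1.77, -1.45, -0.70 and -1.33).

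**Figure D4:**
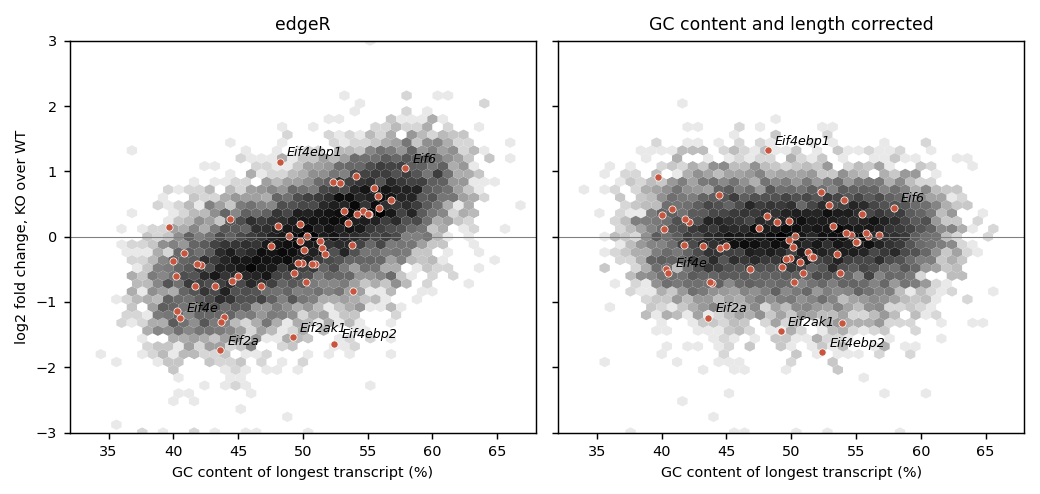
Log2 fold change (y axis, labelled knockout over wild type) against transcript GC content (x axis, percent) for the initiation factor genes (red) over all tested genes (grey density on a log scale, values beyond 3 drawn at the edge), by edgeR and in the corrected fit. The red points follow the grey slope at the left (rho 0.616), and Eif4ebp1, Eif4ebp2 and Eif2ak1 lie off the band in both panels.

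Levels per length ranged widely between genes. In wild type Eif3k (194 ± 18.1 FPKM), Eif1 (156 ± 25.2), Eif5a (121 ± 54.3) and Eif3h (103 ± 20.4) stood highest (SD, n = 5), and neighbours in this order overlapped. In the labelled knockouts Eif5a (213 ± 18.0 FPKM), Eif1 (177 ± 42.0), Eif3k (167 ± 28.0), Eif3h (145 ± 15.7) and Eif4g1 (122 ± 5.07) stood highest (SD, n = 4). The lowest tested genes in wild type were Eif2c3 (0.725 FPKM), Eif2c4 (1.46), Eif1a (1.55) and Eif2ak4 (1.66). FPKM ran higher in the labelled knockouts for most genes, with a median log2 difference of 0.44 over all genes, so levels on this scale are compared within a group only.

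**Figure D5:**
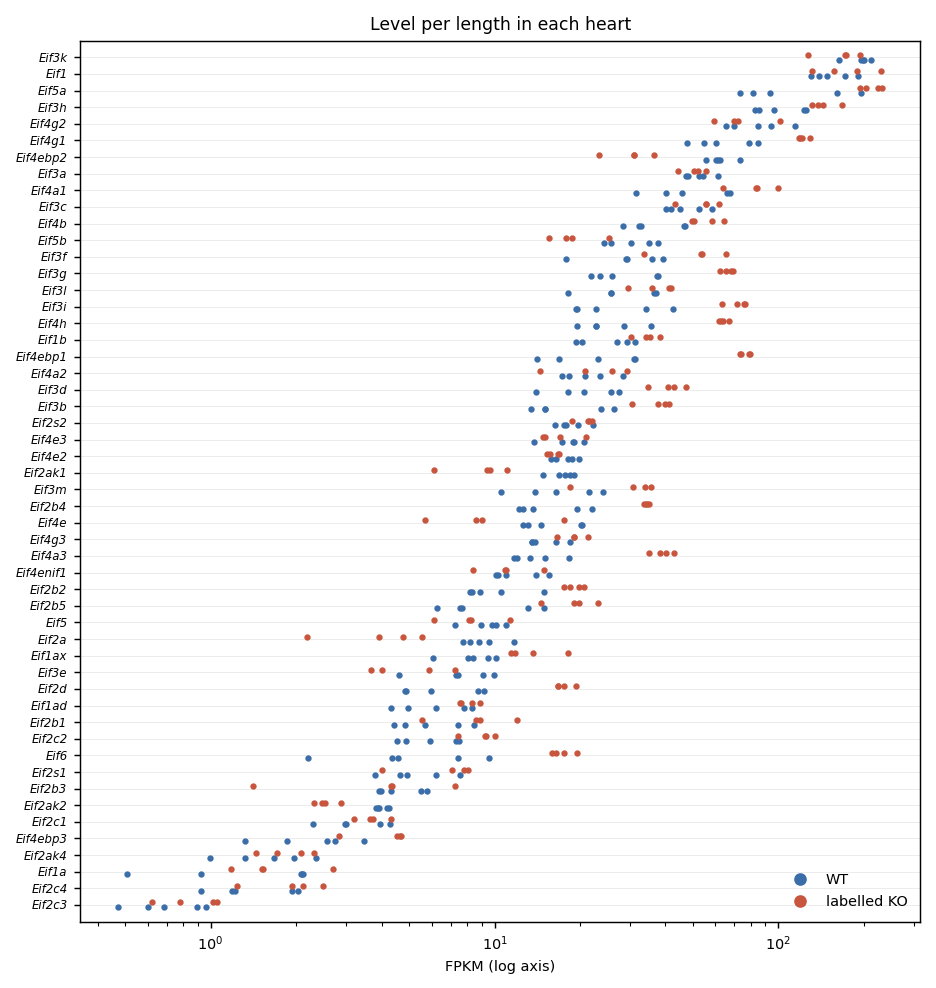
FPKM (log x axis) in each wild-type (blue) and labelled knockout heart (red). Rows are the genes with a wild-type mean of at least 0.5 FPKM, ordered by that mean. Eif3j1 and Eif3j2 are left out, and the Argonaute rows are included. Eif3k, Eif1 and Eif5a stand at the top, and levels are read within a group, since FPKM runs higher in the labelled knockouts for most genes.

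All 56 genes together took 0.3% to 0.43% of assigned reads in wild type and 0.403% to 0.5% in the labelled knockouts, which overlapped. Of reads outside the mitochondrial genome they took 0.638% to 0.737% and 0.477% to 0.556%, which did not. These sums include the Argonaute rows and weigh abundant genes most. Of the most abundant by CPM, Eif4g2 (means of 787 and 466), Eif3a (333 and 207) and Eif5b (299 and 121) were lower by edgeR. Eif4g1 (411 and 521) was higher, and of these genes only Eif5b was called in the corrected fit. In bulk tissue, fewer cells of a type and less RNA per cell cannot be told apart. Between labelled knockout hearts, KO heart 4 held the lowest value for 29 of the 52 tested genes and KO heart 1 the highest for 21.

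Other genes of the translation machinery were read from lists that do not overlap these. For all of these lists, the shares over all tested genes were 26.2% higher and 25.2% lower (corrected, 18.6% and 19.5%). Of 11 tested elongation and termination factors 5 were higher and 1 lower (corrected, 4 and 0). Eef2, which moves the ribosome along the mRNA, rose from 742 to 1770 CPM (1.25, adjusted p = 2.3e-05; corrected 0.72) and the muscle isoform Eef1a2 from 852 to 1700 CPM (1.0; corrected 0.25, adjusted p = 0.0605), while Abce1, a recycling factor, fell (-0.81; corrected -0.13, adjusted p = 0.487). Of 14 genes of mTOR and MNK control 4 were higher and 3 lower (corrected, 2 and 5). Mknk2, a kinase of eIF4E (1.0), and Akt1s1 (0.87), which inhibits mTOR, rose by edgeR only (corrected 0.27 and 0.06), and Rps6 (-0.79; corrected -0.95) and the mTOR activator Rheb (-0.70; corrected -0.49) fell in both fits. Mknk1, the paralog of Mknk2 and named after its values were seen, rose in both fits (0.72, adjusted p = 0.00111; corrected 0.56, adjusted p = 0.00475).

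Among 15 mRNA-binding and helicase partners 1 was higher and 10 lower (corrected, 3 and 5). Ncbp2, of the nuclear cap-binding complex, rose (0.89; corrected 1.36), and the helicase gene Ddx3x (-0.72; corrected -0.03) and Paip2, which restrains poly(A)-binding protein (-1.05; corrected -0.37), fell by edgeR only. Of 12 integrated stress response genes 3 were higher and 1 lower (corrected, 2 and 0). Ddit3, which encodes CHOP, rose from 12.8 to 26.3 CPM (1.04; corrected 0.45, adjusted p = 0.0121). Trib3, a pseudokinase gene induced by CHOP and named after its values were seen, had the largest rise of the list (2.12, adjusted p = 0.00028; corrected 1.51, adjusted p = 0.00484). Gcn1l1, a GCN2 activator, rose by edgeR only (0.79; corrected 0.24), as Nck1 fell (-1.01; corrected -0.27). Atf4 was called in neither fit (0.10 and -0.26). Of 10 mitochondrial factors 2 were higher, Tsfm (1.04; corrected 0.97) and Tufm (0.55; corrected 0.07), and 2 lower, Mtif2 (-0.82; corrected -0.37) and Mtrf1 (-0.84; corrected -0.50), with 1 in each direction in the corrected fit.

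The start regions of the genes were searched for known motifs. RefSeq (GRCm38.p6) gave start regions for 43 of the 56 genes, 57 start sites in all, from 250 bases before to 50 after the start. Only the 250 bases before each start were searched. The E-box CACGTG, the palindrome that Myc and clock factors can bind, was present in 11 of the 57 (19.3%), beside 6.02% of 32851 regions of all genes. The GC box GGGCGG, searched on both strands, was in 70.2% and 32.7%, and CCAAT, on both strands, in 26.3% and 33.8%. Of the 8 tested genes with an E-box, 2 were higher and 2 lower (corrected, 2 and 3), beside 26.2% and 25.2% of all tested genes (corrected, 18.6% and 19.5%). These windows of 60 bases, given on the gene's strand, show the E-box in capitals for a gene that was higher by edgeR and for one that was lower, Eif4g1 at chr16:20672646-20672705 (plus strand) (54 bases before a RefSeq start) and Eif3k at chr7:28981900-28981959 (minus strand) (44 bases before).
Eif4g1: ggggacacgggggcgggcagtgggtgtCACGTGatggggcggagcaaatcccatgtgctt
Eif3k: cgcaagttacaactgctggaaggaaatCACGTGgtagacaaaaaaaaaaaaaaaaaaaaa
The same hexamer thus preceded genes called in opposite directions by edgeR. TGACGTCA and TGATGCAAT, the cAMP and amino acid response motifs, were in none of the 57 regions and in 1.55% and 0.167% of all, on either strand.

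Across 20 alternatives (each heart left out, other count settings, both shallow hearts left out, the replicate block, the corrected fit with and without the block, and median-centred FPKM), 13 of the 32 calls were kept in every one. The 4 higher genes were Eif2d, Eif3i, Eif4a3 and Eif4ebp1. The 9 lower genes were Eif2a, Eif2ak1, Eif2ak2, Eif3k, Eif4e, Eif4e2, Eif4ebp2, Eif4enif1 and Eif5b. With 3 settings of uncentred FPKM added, 23 alternatives in all, 9 of the 13 calls were kept. There Eif3k (-0.23), Eif4e (-0.68 to -0.74), Eif4e2 (-0.13) and Eif4enif1 (-0.11) were not called by limma in any of the 3. Leaving out each heart in turn kept 27 of the 32. The share of all genes kept under the same alternatives is not given here, so these counts are not read as particular to initiation factors. For the corrected fit alone, 16 of the 52 tested genes kept their call, beside 26.7% of all genes.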

How the data were processed

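Poly(A) RNA of 9 hearts (5 wild type, 4 labelled knockout) was sequenced. The authors deposited read counts per gene and, in a separate table, FPKM values for the same hearts. The build was mm10, and HTSeq, TopHat2 2.0.10, TopHat, Bowtie2, Cufflinks 2.1, edgeR and DESeq were used, per the submitters' processing notes. Neither the annotation nor the reads that scale FPKM could be read from the sources used here. Depth was 4415183 to 20827699 assigned reads per heart. FPKM holds no depth.

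Counts were tested as deposited with edgeR 4.0.16 in R 4.3.3 over all genes (TMM factors, default filter of 10 reads, and 15 in total, quasi-likelihood F test, no replicate term), with Benjamini-Hochberg adjustment at 0.05. P-values measure the spread between these hearts. CPM is relative to the TMM-scaled library, and a fold change above 0 on the log2 scale means higher in the labelled knockouts. The corrected fit used lowess curves (span 0.3) of each heart against GC content, then length, of the longest coding transcript as offsets, for 99.2% of tested genes. FPKM was tested with limma 3.58.1 on log2(FPKM + 1) for means of at least 0.5, which understates the change of low genes, and again median-centred per heart. DESeq2 1.42.0 was a further alternative, beside other factors and filters, each heart left out, and the replicate number as a block. Paralog ratios were compared by an exact permutation test, two-sided, over every split of the hearts. Procedures were tested on simulated data.

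Symbols were matched to RefSeq (GRCm38.p6) and GENCODE vM21, 21751 rows directly, 1277 by synonym and 37 by identifier, and 392 were not matched. Values in every heart were given for 13 set genes, the 4 largest rises and falls whose groups did not overlap, and the smallest p per complex and direction. Other lists gave up to 2 called genes per direction. The members and lists were chosen with earlier results of these data known. Median-centred FPKM and the corrected fit with hearts left out were chosen after seeing the data. Without strand, reads of overlapping genes cannot be told apart. No pair of hearts held identical values.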

Additional observations from a re-analysis of the deposited data

Results flagged for a closer look

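Of 116 sets of values (4 or 5 hearts of 1 group), 104 for single genes and 12 for paralog ratios, 9 held a heart far from the others of its group, all for single genes, by Dixon's criterion at 95%, which chance alone passes in about 1 of 20 sets. In the labelled knockouts, 4 of the 9 came from KO heart 4. It was low for Eif2s1 (10.38 CPM), Eif3m (16.32 CPM) and Eif4ebp3 (2.36 CPM) and high for Eif4h (123.0 CPM). In wild type, WT heart 3 was high for Eif1b (29.62 CPM) and low for Eif2b1 (10.96 CPM). WT heart 2 was high for Eif2b3 (10.75 CPM) and low for the Argonaute row Eif2c3 (5.2 CPM). WT heart 4 was low for Eif4a3 (18.47 CPM), a gene whose groups stayed apart. WT hearts 2 and 3 are the shallowest libraries, and the part of depth in these values was not tested.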

How the results depend on the processing

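Leaving out 1 heart gave 10 to 14 genes called higher and 17 to 20 lower, and in the corrected fit 7 to 10 and 9 to 14 (12 lower without WT heart 2 or 5, 11 without WT heart 3 or KO heart 2). Over all tested genes, leaving out 1 heart gave 2841 to 3399 higher and 2704 to 3353 lower, of 12432 to 12768. In the corrected fit it gave 1819 to 2289 higher and 1878 to 2424 lower, of 12339 to 12662. The corrected fit without WT hearts 2 and 3 gave 7 higher and 10 lower, beside 2017 and 2021 of all 12677 tested genes. On uncentred FPKM, 22 initiation factor genes were higher with any of the 3 settings, and 6, 6 and 5 were lower. This scale shifts the median of all genes by 0.44 (0.59 with a pseudocount of 0.1, 0.16 without a filter). Over all genes it gave 5961, 5834 and 6195 higher and 769, 754 and 792 lower, of 12637, 12637 and 18680 tested. Among genes called by edgeR or on this scale, the signs turned for Eif2s2 (0.16, 0.17, 0.16), Eif2c1 (0.15, 0.19, 0.15), Eif3c (0.19 in each), Eif3h (0.51 in each) and Eif4a2 (0.036 in each). All but Eif3h lay below the median shift of 0.44 at a pseudocount of 1. Sign changes of genes called in neither are not listed for this scale. On median-centred FPKM no called gene changed sign, and of the 52 genes only Eif3h, called in neither, did (-0.069 by edgeR and 0.018). In the corrected fit the signs turned for Eif2s1 (0.42), Eif2s2 (0.22), Eif2b2 (-0.077) and Eif4a2 (0.12), each called in 1 of the 2 fits. Of genes called in neither fit, they turned for Eif1a (0.33), Eif2c3 (0.27), Eif2c4 (0.13), Eif4ebp3 (-0.26) and Eif5a (-0.085). The cause was not tested.

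Replicate numbers did not pair the hearts: deviations of same-numbered hearts correlated at -0.113, 0.0408, -0.0648 and -0.259, and 1 of 4 wild-type hearts correlated best with its own number. With the replicate block 8 genes were higher and 16 lower, beside 2492 and 2538 of all 12640 tested genes. With block and correction 6 were higher and 10 lower, beside 1528 and 1857 of 12542. Among genes called by edgeR or in that fit, signs turned there for Eif2s2 (0.23), Eif2b2 (-0.068), Eif2b4 (-0.018), Eif3b (-0.024) and Eif4a2 (0.12).

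Pair differences with 1 heart left out ran from -2.93 to -2.67 for Eif4ebp2/Eif4ebp1, -1.23 to -1.02 for Eif4g2/Eif4g1, -0.88 to -0.73 for Eif4a2/Eif4a1, -0.68 to -0.52 for Eif4g3/Eif4g1, 0.54 to 1.04 for Eif4e2/Eif4e and 0.15 to 0.41 for Eif1b/Eif1. Without WT hearts 2 and 3 the first 4 stood at -2.51, -1.10, -0.74 and -0.49 and on corrected counts at -3.09, -0.21, -0.22 and -0.37, and none passed (exact permutation, adjusted), with 7 hearts because no split can.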
